A study of Mus musculus with 5 samples.

Results

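The genes described here encode the 3 ligands TGF-beta 1, 2 and 3 (Tgfb1, Tgfb2, Tgfb3), their type I and type II receptors (Tgfbr1, Tgfbr2) and the 4 latent TGF-beta binding proteins (Ltbp1, Ltbp2, Ltbp3, Ltbp4). They were taken by name: every probe set whose only gene symbol in the platform annotation was one of these 9. This gave 22 of the 45101 probe sets on the array and 9 of the 18193 genes with a probe set of a single symbol. Each gene had 1 to 4 probe sets, and probe sets of 1 gene measure the same gene and are not independent of each other.

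The study profiled RNA on 5 one-colour oligonucleotide arrays. The TNF-LTBR group, named after the cytokine TNF and the lymphotoxin beta receptor, held 2 arrays and the control group 3, all with 24 h in their titles. All 5 came from cultured aortic endothelial cells of C57BL/6J mice. The treatment text is the same for every sample and names only PBS, and the agonists and doses were not given in the labels. No label states that the arrays of one group are separate cultures, so the p-values below cover the array-to-array spread, which may be technical.

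TGF-beta ligands are made as a dimer bound to their own propeptide, which keeps them inactive. A latent binding protein couples to this complex through a disulfide bond and anchors it in the extracellular matrix, from which integrins or proteases can release the active ligand. Active ligand brings the type II and type I receptor kinases together, and the type I receptor phosphorylates Smad proteins, which then regulate genes of matrix and contraction. Ltbp1, Ltbp3 and Ltbp4 proteins bind latent TGF-beta, whereas Ltbp2 protein does not and is a component of microfibrils. In the vessel wall the pathway is known for its part in endothelial and mural cell differentiation.

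Median intensity lay between 109.9 and 120.7 on the 5 arrays. Similarity between arrays did not follow the titles. Over all 45037 probe sets, Pearson's r was 0.975 between TNF-LTBR array 2 and control array 3 and 0.971 between TNF-LTBR array 1 and control array 2, against 0.947 between the TNF-LTBR arrays. The first principal component held 59.4% of the variance of the brighter probe sets, with TNF-LTBR array 1 (-0.548) and control array 2 (-0.418) at one end, TNF-LTBR array 2 (0.445) and control array 3 (0.57) at the other, and control array 1 near the middle (-0.048). Each result is therefore also given array by array. The groups are those of the titles, and whether any title stands on the wrong array was not tested. The endothelial label did not match all of its markers: Vwf, which encodes von Willebrand factor, read 5.8 and 2.9 on the TNF-LTBR arrays and 7.2, 7.1 and 2.3 on the control arrays, and the endothelial receptor kinase Tie1 read 5.5 and 5.2 on the TNF-LTBR arrays against 45.5, 5.4 and 2.0 on the control arrays. These 2 genes and Erg were 3 of 13 endothelial markers that lay below the array median on all 5 arrays. This share was not above the 30.2% of all genes. Erg read 9.1 and 8.9 on the TNF-LTBR arrays, below the 68.2, 54.9 and 37.5 of the control arrays (limma adjusted p 0.9999). Of the 13 markers, 1 lay below all controls and 1 above, beside 6.38% and 8.6% of all genes. Pecam1, Cdh5, Emcn and Esam lay above the array median on 3 arrays and below it on TNF-LTBR array 2 and control array 3. Tek and Cldn5 lay above the array median on only 1 array and Robo4 on 2. Egfl7, Plvap and Kdr, a receptor for VEGF, lay above it on all 5. Kdr read 336.9 and 255.1 on the TNF-LTBR arrays against 344.3, 364.2 and 258 on the control arrays. None of the 10 fibroblast and pericyte markers lay below the median throughout, and Col1a2, a subunit of type I collagen, read 18103.6 and 20052.6 on the TNF-LTBR arrays and 17596.6, 18781.3 and 20691.4 on the control arrays. The cells are therefore called cultures below.

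None of the 22 TGF-beta probe sets passed the threshold between TNF-LTBR and control cultures. The test was limma on log2(intensity + 16) over all 45037 probe sets, two-sided, with Benjamini-Hochberg adjustment and a threshold of 0.05, and it called 0 probe sets in all (percent called 0). At an unadjusted p under 0.05 it counted 0 of the 22, against 3.04% of all probe sets. For 17 of the 22 the difference between group means was smaller than the larger of the group SDs, which held for 78.5% of all probe sets. The groups overlapped for 21 of the 22, whereas 15.7% of all probe sets had groups without overlap, and for all 9 brightest probe sets, beside 15% of genes without overlap. The exception, a dim probe set of Tgfb1, lay below all controls on both TNF-LTBR arrays, as did 6.85% of all probe sets, and 0 of the 22 lay above all controls, against 8.81% of all. With 2 and 3 arrays, the smallest p that exact permutation allows is 0.1.

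The point estimates leaned one way, by an amount that depended on the TNF-LTBR array. The mean was lower in TNF-LTBR cultures for 19 of the 22 probe sets, beside 48.1% of all probe sets, with a median difference of -0.22 against 0.01 over all (log2 scale, TNF-LTBR minus control). Without TNF-LTBR array 1 the split was 11 lower and 11 higher, and the median was -0.02, whereas without TNF-LTBR array 2 it was 19 lower and 3 higher, with a median of -0.41. Without TNF-LTBR array 1 and control array 2, an alternative chosen after seeing the data, it was 12 lower and 10 higher, with a median of -0.04. Without TNF-LTBR array 2 and control array 3, chosen likewise, it was 19 lower and 3 higher, with a median of -0.31. In bulk RNA, fewer cells of a type and less RNA per cell cannot be told apart.

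**Figure D1:**
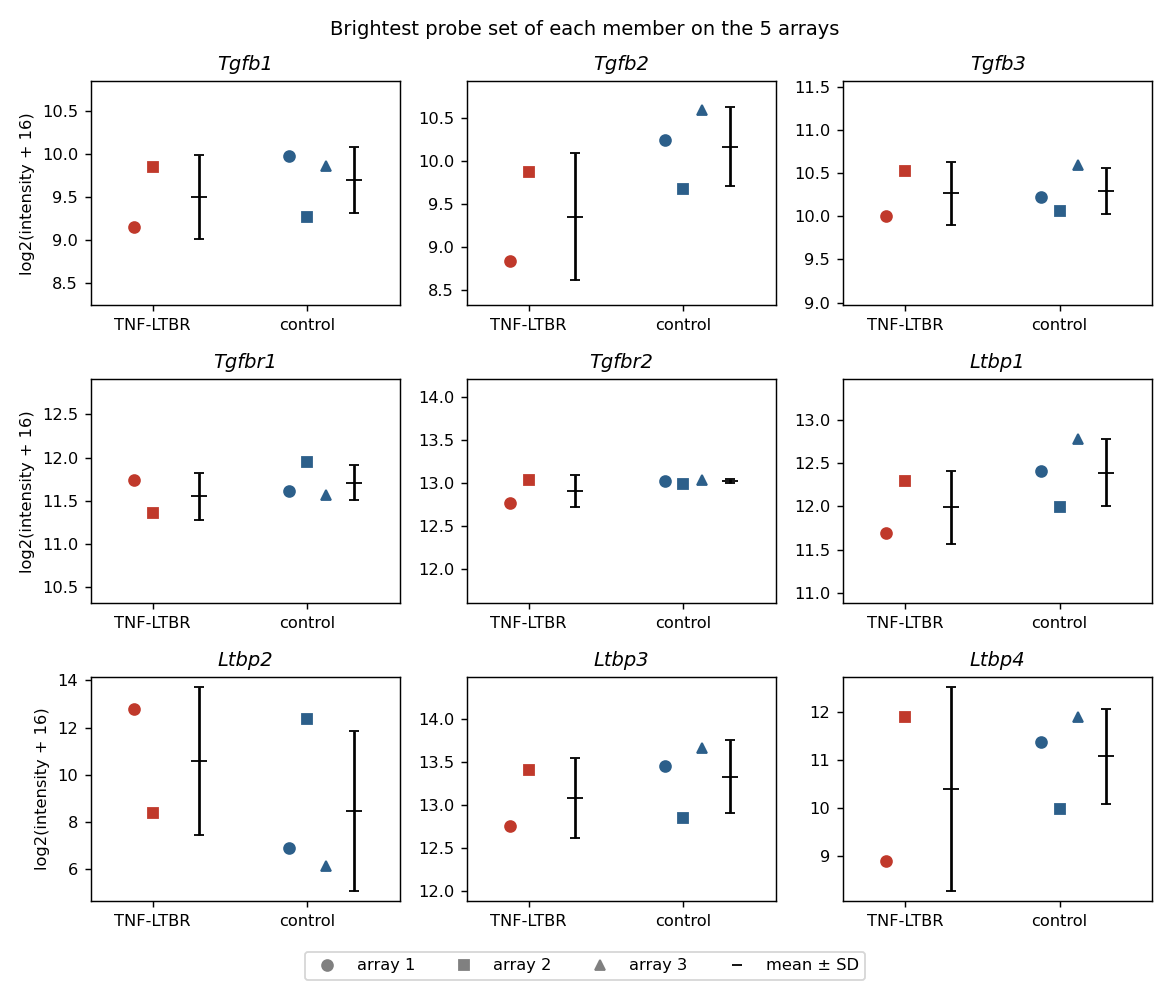
Values of the brightest probe set of each of the 9 genes, as log2(intensity + 16) on the vertical axis, by group on the horizontal axis, with 1 symbol per array and the mean ± SD beside each group (n = 2 TNF-LTBR, n = 3 control). The vertical axes of Ltbp2 and Ltbp4 have their own spans and the other 7 panels share one span; every panel shows overlapping groups, and TNF-LTBR array 1 is the lowest point in 7 of the 9.

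Values crossed the groups in a common order. On the brightest probe set of 7 genes (Tgfb1, Tgfb2, Tgfb3, Tgfbr2, Ltbp1, Ltbp3 and Ltbp4), TNF-LTBR array 1 and control array 2 were the 2 lowest of the 5. On the remaining genes, Tgfbr1 and Ltbp2, they were the 2 highest. Among the brightest probe sets of all genes, 15.6% had both arrays below the other 3 and 19.7% had both above. Over all member probe sets the counts were 14 below and 2 above of 22, beside 15.5% and 16.8% of all probe sets. This order was noticed in the values and is given as a description, with no test. For Tgfbr2 the place of control array 2 rests on a small gap, as control arrays 1 to 3 read 8311.2, 8130.4 and 8382.7.

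**Figure D2:**
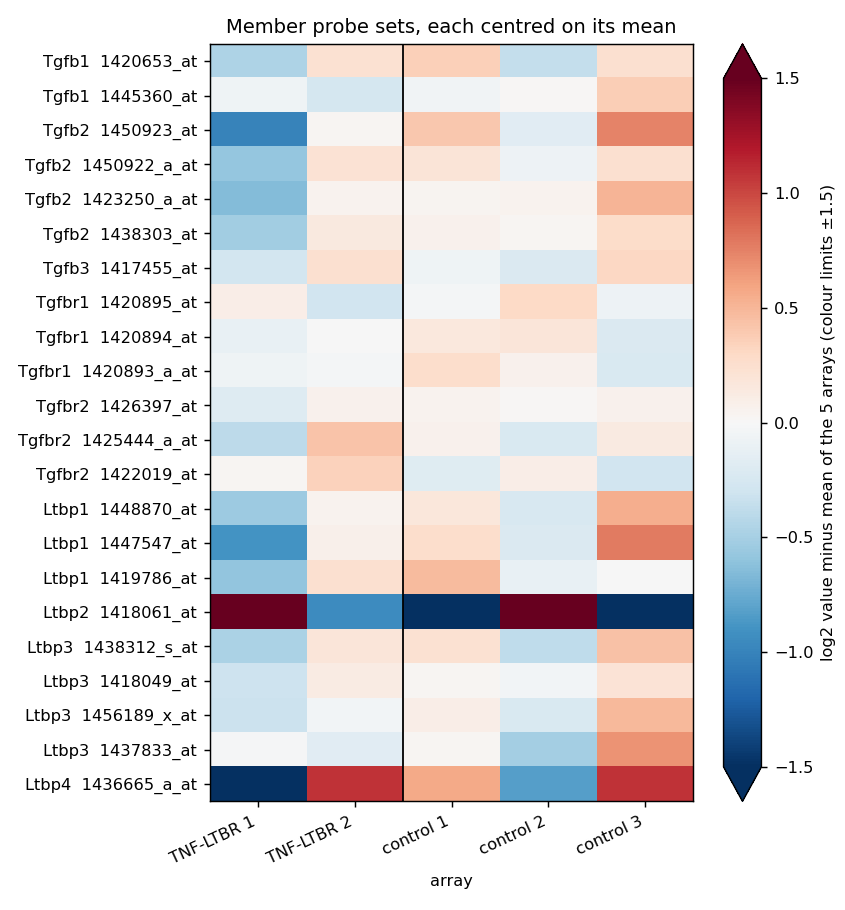
Each row is a probe set of the 9 genes and each column an array, with the TNF-LTBR arrays left of the line, and colour gives the log2 value minus the row's mean over the 5 arrays, with colours limited at ±1.5. Blue cells on TNF-LTBR 1 and control 2 fill most rows, and Ltbp2 shows the opposite colours.

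Among the ligands, Tgfb1 encodes the form best known from platelets, immune cells and vessels. Its brighter probe set (1420653_at) read 553.7 and 903.8 on TNF-LTBR arrays 1 and 2, and 988.2, 600.2 and 912.7 on control arrays 1 to 3. Low readings occurred on 1 array of each group, and the groups overlapped. On the log2 scale the level was 9.50 ± 0.49 in TNF-LTBR cultures and 9.70 ± 0.38 in controls (SD, n = 2 and n = 3), a difference of -0.20 (95% interval -0.94 to 0.54, limma adjusted p 0.9999). Without TNF-LTBR array 1 the difference was 0.15. The dim probe set of Tgfb1 (1445360_at) read 99.1 and 84.2 on the TNF-LTBR arrays against 99.7, 105.6 and 139.3 on the control arrays, a difference of -0.27 (-0.98 to 0.43). It exceeded the array median on only 1 of the 5 arrays, and its lowest control was 99.7 beside a highest TNF-LTBR value of 99.1.

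Tgfb2, the ligand whose transcript is prominent in developing heart and vessels, had the lowest unadjusted p of the members (0.0827, limma). Its brightest probe set (1450923_at) read 440.7 and 920.9 on the TNF-LTBR arrays, and 1193.3, 798.2 and 1519.8 on the control arrays. TNF-LTBR array 1 was well below all others, whereas TNF-LTBR array 2 lay between control arrays 2 and 1. The level was 9.35 ± 0.73 in TNF-LTBR cultures and 10.16 ± 0.46 in controls, a difference of -0.81 (-1.77 to 0.14, limma adjusted p 0.9999), or 0.57-fold. It was -0.29 without TNF-LTBR array 1 and -1.33 without TNF-LTBR array 2. The other 3 probe sets, of which 2 were annotated to the same source sequence as the brightest, differed by -0.50, -0.31 and -0.30. On each of the 4, TNF-LTBR array 1 was the lowest and control array 3 the highest of the 5 arrays.

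Tgfb3, the third ligand (1417455_at), read 1013.2 and 1456.4 on the TNF-LTBR arrays and 1174.2, 1055.1 and 1527.1 on the control arrays. Both groups held a higher and a lower array, and the lowest and the highest TNF-LTBR readings bracketed control arrays 1 and 2. The level was 10.27 ± 0.37 in TNF-LTBR cultures and 10.29 ± 0.27 in controls, a difference of -0.03 (-0.60 to 0.55). It was 0.23 without TNF-LTBR array 1, -0.28 without TNF-LTBR array 2, -0.063 without control array 1, -0.14 without control array 2 and 0.12 without control array 3. The interval leaves room for a change of about 0.5 on the log2 scale in either direction.

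The brightest probe sets of both receptors differed little between arrays. Tgfbr2 encodes the type II receptor, which binds the ligand first. Its brightest probe set (1426397_at) read 6982.9 and 8375.6 on the TNF-LTBR arrays and 8311.2, 8130.4 and 8382.7 on the control arrays. The control arrays were nearly equal, and TNF-LTBR array 1 alone stood lower. The level was 12.90 ± 0.19 in TNF-LTBR cultures and 13.02 ± 0.02 in controls, a difference of -0.11 (-0.45 to 0.22) that was 0.018 without TNF-LTBR array 1. A second probe set differed by 0.03 (-0.65 to 0.71), or -6.4e-05 after median centring, with 572.9 and 1023.0 on the TNF-LTBR arrays against 791.6, 643.2 and 834.5 on the control arrays. The third lay below the array median on all 5 arrays, at 38.2 and 51.2 on the TNF-LTBR arrays against 30.8, 40.6 and 27.4 on the control arrays, and differed by 0.31 (-0.40 to 1.03).

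Tgfbr1 encodes the type I receptor kinase that signals to Smad2 and Smad3. Its brightest probe set (1420895_at) read 3409.3 and 2606.8 on the TNF-LTBR arrays and 3126.5, 3920.8 and 3015.5 on the control arrays. Here TNF-LTBR array 1 and control array 2 were the higher ones, unlike in the ligands. The level was 11.55 ± 0.27 in TNF-LTBR cultures and 11.71 ± 0.20 in controls, a difference of -0.16 (-0.62 to 0.31) that was -0.35 without TNF-LTBR array 1 and 0.033 without TNF-LTBR array 2. It was -0.042 without control array 2. The other 2 probe sets, annotated to the same source sequence, differed by -0.10 and -0.08 and did not show that order, with control array 3 the lowest on both.

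**Figure D3:**
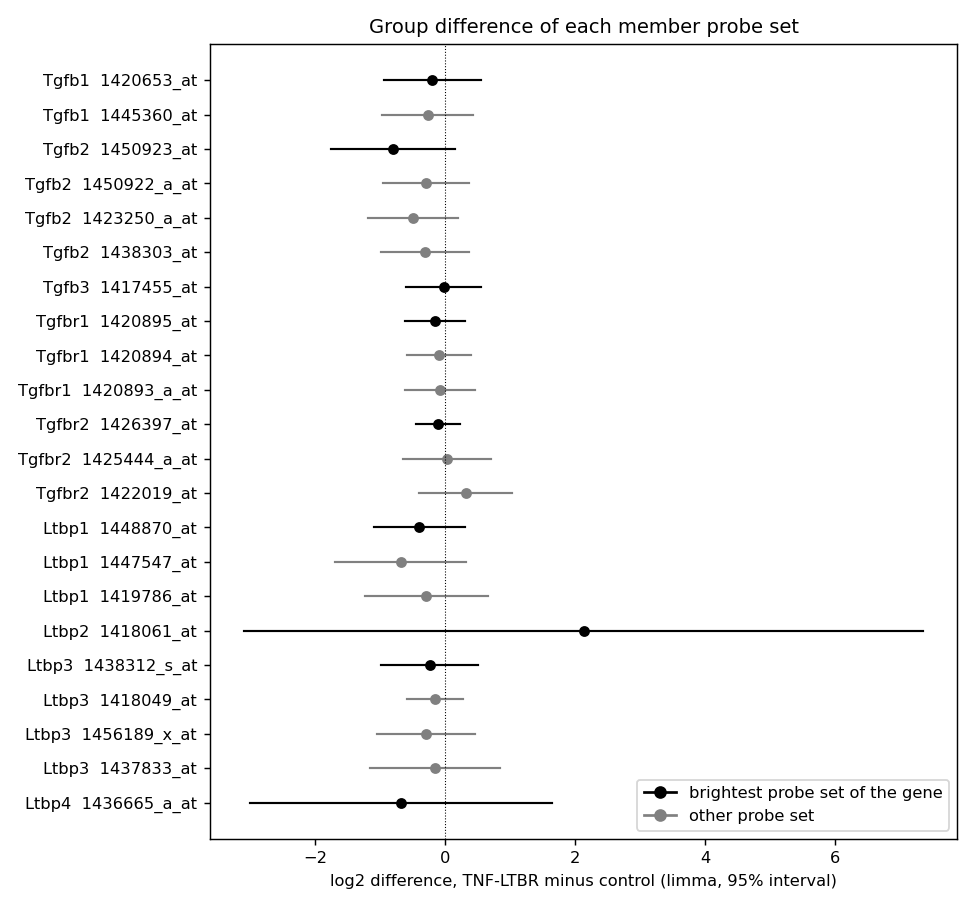
Difference in log2(intensity + 16), TNF-LTBR minus control, on the horizontal axis for each of the 22 probe sets down the page, with 95% intervals from limma; black marks the brightest probe set of a gene and grey the others. Every interval includes 0, and that of Ltbp2 runs from -3.10 to 7.36.

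The latent binding proteins held both the widest and the most opposed values. Ltbp2, the microfibril component (1418061_at), read 7094.3 and 309.9 on TNF-LTBR arrays 1 and 2, and 101.1, 5187.3 and 53.2 on control arrays 1 to 3. It was high on 1 array of each group, TNF-LTBR array 1 and control array 2, and below the array median on control arrays 1 and 3. With readings below the array median, the size of the span depends on the pseudocount. The level was 10.57 ± 3.14 in TNF-LTBR cultures and 8.44 ± 3.40 in controls, so the difference of 2.13 was smaller than either SD (-3.10 to 7.36, limma adjusted p 0.9999). It was -0.095 without TNF-LTBR array 1, 4.35 without TNF-LTBR array 2, 1.34 without control array 1, 4.08 without control array 2 and 0.96 without control array 3. Without TNF-LTBR array 1 and control array 2 together it was 1.86, from 309.9 on TNF-LTBR array 2 against 101.1 and 53.2 on control arrays 1 and 3, with 1 TNF-LTBR array left.

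Ltbp4, which binds latent TGF-beta and takes part in elastic fibre assembly (1436665_a_at), ran the other way. It read 461.1 and 3781.7 on the TNF-LTBR arrays and 2628.9, 997.3 and 3773.9 on the control arrays. TNF-LTBR array 1 and control array 2 were lowest, and TNF-LTBR array 2 and control array 3 were within 10 units of each other. The level was 10.39 ± 2.12 in TNF-LTBR cultures and 11.08 ± 0.98 in controls, a difference of -0.69 (-3.01 to 1.64, limma adjusted p 0.9999). It was 0.81 without TNF-LTBR array 1, -2.18 without TNF-LTBR array 2, -1.23 without control array 2 and -0.28 without control array 3. The span over the arrays was 7.96-fold.

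Ltbp1, the binding protein first described for latent TGF-beta 1, read 3286.7 and 4991.0 on the TNF-LTBR arrays and 5406.8, 4058.7 and 7013.8 on the control arrays, on its brightest probe set (1448870_at). TNF-LTBR array 1 was the lowest and control array 3 the highest. The level was 11.99 ± 0.42 in TNF-LTBR cultures and 12.39 ± 0.39 in controls, a difference of -0.40 (-1.10 to 0.30) that was -0.10 without TNF-LTBR array 1 and -0.70 without TNF-LTBR array 2. Its other probe sets differed by -0.69 and -0.29, and the second of these lay below the array median on all 5 arrays. Both also had TNF-LTBR array 1 lowest.

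Ltbp3 encodes a further carrier of latent ligand, known for its part in bone and tooth. The brightest of its 4 probe sets (1438312_s_at) read 6898.8 and 10869.2 on the TNF-LTBR arrays and 11234.1, 7386.2 and 12988.1 on the control arrays. Again TNF-LTBR array 1 and control array 2 were the lowest. The level was 13.08 ± 0.46 in TNF-LTBR cultures and 13.33 ± 0.42 in controls, a difference of -0.24 (-0.99 to 0.50) that was 0.084 without TNF-LTBR array 1. The other probe sets differed by -0.16, -0.30 and -0.16, and the dimmest, at 36.2 and 31.0 on the TNF-LTBR arrays against 37.9, 21.2 and 68.2 on the control arrays, stayed below the array median throughout.

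Promoter sequences are shown for Tgfb2, which had the lowest p, and for Ltbp2 and Ltbp4, whose values ran in opposite order over the arrays. They are RefSeq windows of build GRCm38.p6, from 250 bases before to 50 bases after an annotated start site, written 5′ to 3′ on the gene's strand, which is the minus strand for all 3. Tgfb2 lies at chr1:186705940-186706239, Ltbp2 at chr12:84876442-84876741 and the Ltbp4 window furthest upstream at chr7:27337563-27337862. Capitals mark CAGAC, the core of the Smad binding element, and GGGCGG, the GC box bound by Sp1, on either strand.
Tgfb2: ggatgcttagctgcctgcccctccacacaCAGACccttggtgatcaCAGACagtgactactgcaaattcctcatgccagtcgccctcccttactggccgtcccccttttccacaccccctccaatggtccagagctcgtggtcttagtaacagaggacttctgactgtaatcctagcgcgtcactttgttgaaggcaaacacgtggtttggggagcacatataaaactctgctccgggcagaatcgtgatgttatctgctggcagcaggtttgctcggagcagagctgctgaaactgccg
Ltbp2: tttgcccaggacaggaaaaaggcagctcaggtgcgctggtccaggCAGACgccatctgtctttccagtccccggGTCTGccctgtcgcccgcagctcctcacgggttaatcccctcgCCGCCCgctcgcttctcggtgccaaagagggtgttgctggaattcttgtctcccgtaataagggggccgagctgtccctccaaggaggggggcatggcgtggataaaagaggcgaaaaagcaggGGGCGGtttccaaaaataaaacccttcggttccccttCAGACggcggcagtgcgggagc
Ltbp4: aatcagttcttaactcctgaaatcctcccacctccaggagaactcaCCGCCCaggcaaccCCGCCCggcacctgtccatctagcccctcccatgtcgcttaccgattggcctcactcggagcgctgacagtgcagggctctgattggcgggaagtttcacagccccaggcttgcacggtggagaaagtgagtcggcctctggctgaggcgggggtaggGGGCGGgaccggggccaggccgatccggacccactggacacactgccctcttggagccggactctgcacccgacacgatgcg
The Tgfb2 window held 2 CAGAC matches and a TATAAA match that begins 31 bases before the start site. The Ltbp2 window held 3 CAGAC and 2 GGGCGG matches. The Ltbp4 window held 3 GGGCGG matches and no CAGAC, and its other 2 windows, which overlap each other, held 7 and 9. Which start site these cultures used is not known from the arrays.

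RefSeq windows were found for 8 of the 9 genes, 12 in all, with several start sites for Tgfbr1, Ltbp1 and Ltbp4. CAGAC occurred in 7 of the 12 (49.6% of 32851 mouse windows of the same length) and GGGCGG in 6 (35.7%). The NF-kB consensus occurred in 1, that of Tgfb1 at chr7:25686752-25687051, beside 8.46% of all windows. The AP-1 motif TGANTCA occurred in 1, that of Ltbp3 at chr19:5740650-5740949, where it overlaps a CAGAC match, beside 7.81% of all. TATAAA occurred in 13.6% of all windows. All motifs were searched on both strands. A match describes letters in the window and not a bound site.

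The summed macrophage markers and Pdpn were highest on the 2 arrays on which Ltbp2 was high, though not every macrophage marker was. The summed intensity of 9 macrophage markers was 9271.9 and 3139.1 on TNF-LTBR arrays 1 and 2, and 4195.8, 8232.9 and 2774.5 on control arrays 1 to 3. Within this list 5 of 9 genes were highest on TNF-LTBR array 1 and control array 2, including Lyz2, which encodes lysozyme, at 3933.6 and 66.5 on the TNF-LTBR arrays against 1088.5, 3409.2 and 186.3 on the control arrays. The leukocyte marker Ptprc and the integrin subunit Itgam lay below the array median on all 5 arrays. The 4 lymphatic endothelial markers summed to 11494.4 and 515.2 on the TNF-LTBR arrays against 1450.6, 8233 and 435.2 on the control arrays. Pdpn, which encodes podoplanin, read 11151.8 and 328.4 on the TNF-LTBR arrays against 1198.8, 7962.8 and 220.7 on the control arrays, while Prox1 and Lyve1 lay below the array median on every array. In the other lists, this order held for 1 of 10 smooth muscle, 2 of 13 endothelial and 2 of 10 fibroblast and pericyte markers. The share of all genes highest on TNF-LTBR array 1 and control array 2 was 19.7%. The smooth muscle and endothelial sums were lowest on TNF-LTBR array 2 and control array 3, as was the macrophage sum. For 2 of 10 smooth muscle markers, Smtn and Lmod1, TNF-LTBR array 1 and control array 2 instead lay below the other 3. This held for 0 of 13 endothelial and 0 of 9 macrophage markers, beside 15.6% of all genes. The fibroblast and pericyte sum was highest on TNF-LTBR array 2 and control array 3. Not all of its markers followed it: Rgs5 and Fap were highest on TNF-LTBR array 1 and control array 2. Those arrays lay below the other 3 for 1 of the 10. Smooth muscle markers summed to 13727 and 11518.1 on the TNF-LTBR arrays against 24394, 20136 and 11955 on the control arrays, with Myh11, Cnn1 and Myocd below the median throughout. The 13 endothelial markers summed to 2296.6 and 1741.9 on the TNF-LTBR arrays against 2526.8, 2583.2 and 1449.7 on the control arrays. Fibroblast and pericyte markers summed to 73038.5 and 93666.5 on the TNF-LTBR arrays against 50729, 71528.6 and 87253.9 on the control arrays. The part of these cells in the TGF-beta values was not tested.

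Genes with a pattern most like a member were sought for the 4 genes that spanned over 1 log2 unit on their brightest probe set, as the smallest root mean square difference between values centred on each gene's own mean over the 5 arrays. For Ltbp2 these were Ccl8, a chemokine for monocytes, at 0.67 log2 units, Il6, the cytokine interleukin-6, at 0.86, and the transcription factor Isl1 at 0.88. Il6 read 1195.7 and 33.7 on the TNF-LTBR arrays and 39.1, 1184.6 and 33.5 on the control arrays. It thus was high on the same 2 arrays as Ltbp2. For Ltbp4 they were Ogn, which encodes the matrix proteoglycan osteoglycin, at 0.18, Depp1 at 0.26 and the actin regulator Mtss1 at 0.27. Ogn read 2557.8 and 17365.6 on the TNF-LTBR arrays against 11225.6, 6004.2 and 20478.4 on the control arrays. For Tgfb2 they were the receptor phosphatase Ptprk at 0.09, the creatine kinase Ckb at 0.11 and Bicral at 0.12. For Ltbp1 they were Plekhh3 at 0.04, the fucosyltransferase Fut8 at 0.05 and Prxl2c at 0.05. With 5 arrays and 18193 genes, close likeness of this kind is a description of these arrays.

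The wider pathway was read from 6 lists of 80 genes, of which 76 were measured on a probe set with a single symbol and the others were not analysed here. None passed the threshold in either direction (limma), and 1 of 76 had an unadjusted p under 0.05, beside 2.73% of all genes. The brightest probe set lay above all controls for 5 genes (6.58%) and below them for 4 (5.26%), beside 8.6% and 6.38% of all genes. The median difference was -0.07, with 31 genes higher and 45 lower, against 0.01 over all genes.

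**Figure D4:**
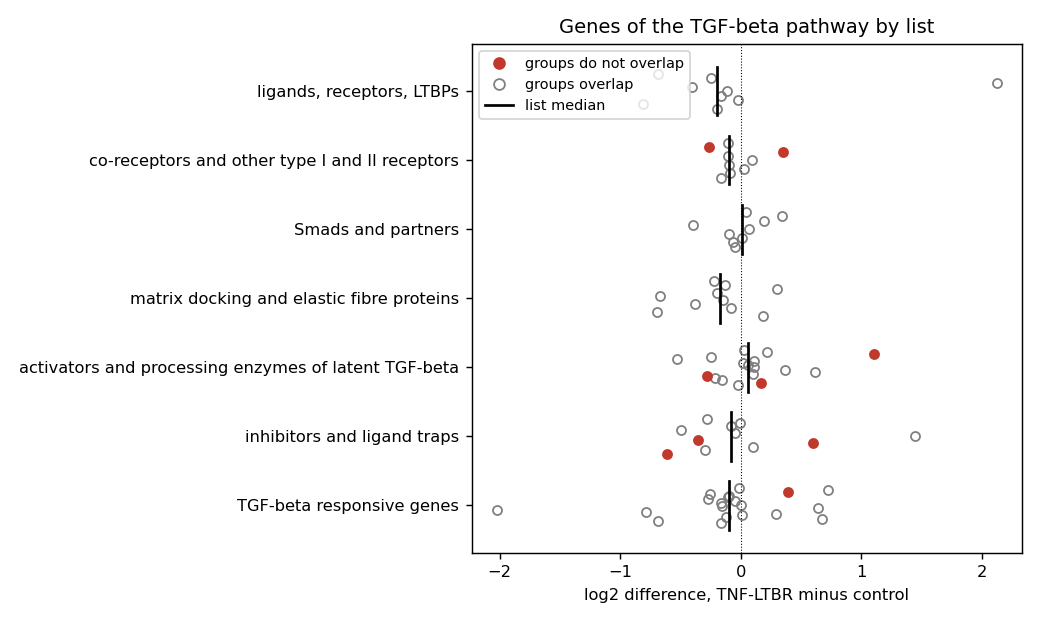
Difference in log2(intensity + 16), TNF-LTBR minus control, on the horizontal axis for the brightest probe set of each measured gene, by list down the page. Filled red points are genes whose groups did not overlap, open points those that overlapped, and the vertical bar is the list's median. The medians lie between -0.20, for the ligands, receptors and latent binding proteins, and 0.06.

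Of 9 co-receptors and other type I and II receptors, 3 were higher and 6 lower, with a median of -0.10 and 0 past the threshold. Bmpr1a, a BMP type I receptor, read 3025.6 and 3636.5 on the TNF-LTBR arrays, below the 4441.3, 3760.5 and 3763.5 of the control arrays (-0.26, unadjusted p 0.145). Acvr2b, an activin type II receptor, was the 1 gene above all controls, at 52.4 and 59.6 on the TNF-LTBR arrays against 34.6, 36.2 and 52.1 on the control arrays, below the array median throughout. The Smad list had a median of 0.01 over 9 genes, 5 higher and 4 lower, with 0 past the threshold, and the groups overlapped for all 9. TNF-LTBR array 1 and control array 2 lay below the other 3 for 2 of the 9 and above them for 3. Smad6, an inhibitory Smad chosen after its values were seen, was 1 of those below, at 498.4 and 1213.2 on the TNF-LTBR arrays against 1197.9, 626.3 and 1445.5 on the control arrays.

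Inhibitors and ligand traps were lower for 8 of 11, with a median of -0.08 and 0 past the threshold. Smurf1, a ubiquitin ligase that targets Smads and the type I receptor, was the gene of these lists with an unadjusted p under 0.05. It read 1046.7 and 1116.3 on the TNF-LTBR arrays and 622, 720.5 and 793.3 on the control arrays, 1.51-fold. Both TNF-LTBR arrays were higher than every control, with an unadjusted p of 0.0119 and an adjusted p of 0.9999 (limma). Its relative Smurf2 lay below all controls, at 2793.2 and 2554.5 on the TNF-LTBR arrays against 4965.6, 2816.1 and 2862.7 on the control arrays (-0.36). Bambi, a decoy receptor that lacks a kinase domain, read 237.4 and 138.9 on the TNF-LTBR arrays against 349.2, 241.5 and 280.9 on the control arrays (-0.61, unadjusted p 0.0883). The gap to the nearest control was small for Smurf2 and for Bambi on TNF-LTBR array 1.

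Activators and processing enzymes of latent TGF-beta were higher for 11 of 17, with a median of 0.06 and 0 past the threshold. Itgav, the integrin alpha chain of receptors that activate latent TGF-beta, read 13308 and 12585.3 on the TNF-LTBR arrays and 11963.2, 11566.8 and 10989.1 on the control arrays (0.17). Its partner Itgb5 lay on the other side, at 5531.9 and 6389.9 on the TNF-LTBR arrays against 7000.9, 7245.4 and 7469 on the control arrays (-0.28, unadjusted p 0.0755). Mmp9, a gelatinase, was at 196.6 and 95 on the TNF-LTBR arrays against 76.6, 86.6 and 22.5 on the control arrays, a difference of 1.10 with only TNF-LTBR array 1 above its array's median. Tll1, a tolloid protease chosen after its values were seen, shared the order of Ltbp2, at 2174 and 197.1 on the TNF-LTBR arrays against 652.1, 2576.8 and 161 on the control arrays. In this list TNF-LTBR array 1 and control array 2 lay above the other 3 for 6 of 17 genes, beside 19.7% of all genes. They lay below the other 3 for 1 of the 17, beside 15.6%.

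Matrix docking and elastic fibre genes were lower for 8 of 10, with a median of -0.17 and 0 past the threshold, and the groups overlapped for all 10. TNF-LTBR array 1 and control array 2 lay below the other 3 for 2 of the 10, beside 15.6% of all genes. They lay above the other 3 for 3 of the 10, beside 19.7%. Mfap5, a microfibril-associated glycoprotein chosen after its values were seen, read 4923.6 and 686.1 on the TNF-LTBR arrays and 885.2, 4881.8 and 767.7 on the control arrays, high on the 2 arrays where Ltbp2 was high. Fbln5, which encodes an elastic fibre protein that binds Ltbp4 and was also chosen after its values were seen, was lowest where Ltbp4 was lowest, at 2651.2 and 7081.4 on the TNF-LTBR arrays against 5660.8, 5003.1 and 11545.3 on the control arrays. Genes known to respond to TGF-beta were lower for 13 of 20, with a median of -0.10 and 0 past the threshold. Klf10, an early response transcription factor, was the 1 gene without overlap, at 681.3 and 622 on the TNF-LTBR arrays against 450.2, 481.7 and 549 on the control arrays (0.39, unadjusted p 0.0640).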

How the data were processed

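RNA of cultured cells was measured on 5 one-colour arrays. The deposited values are intensities on a linear scale, 1 per probe set and array; per the submitters' processing notes the authors used GCOS 1.4, with no summarisation method or genome build stated in those notes. Each array's mean intensity, trimmed by 2% at both ends, was 500, so the values were used as deposited. No depth applies to arrays, and their number limits the precision.

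Groups and replicate numbers came from the sample titles. After 64 control probe sets were left out, log2(intensity + 16) of 45037 probe sets was fitted with limma 3.58.1 (R 4.3.3, lmFit and eBayes with an intensity trend, 3 residual degrees of freedom), without a filter, so that every member was tested. Of the 22 member probe sets, 19 were among the brightest 60%. Symbols came from the platform annotation (34945 probe sets with 1 symbol, 932 with several, 9160 with none listed), and all 22 members matched RefSeq by Entrez ID. Levels were set against each array's median and summed within marker lists, and otherwise not compared between probe sets.

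The rule for named genes took the 9 members, up to 4 non-overlapping genes per direction from each pathway list, and the 3 genes most like each member spanning over 1 log2 unit. Members and lists were chosen with earlier results of these data known. Alternatives were other pseudocounts (1 and 64), brightness filters, normalizations, no trend, array weights, a replicate block and leaving out arrays. Figures used matplotlib and promoters came from RefSeq.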

Additional observations from a re-analysis of the deposited data

How the results depend on the processing

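Over 16 alternatives, 0 probe sets and 0 members passed the threshold (limma), with 1.76% to 5.76% of all features at an unadjusted p under 0.05. The median over members stayed below 0, at -0.41 to -0.02 when 1 array was left out. Of 336 values of single probe sets under an alternative, 307 kept their sign and side of the threshold and 29 changed sign; the cause was not tested. Among settings that kept all arrays, 2 signs changed: Tgfbr2 1425444_a_at under median centring (-6.4e-05) and Tgfb3 with array quality weights (0.028). The replicate block, in which control array 3 has no weight, turned Tgfb3 (0.12) and Ltbp3 1437833_at (0.15), as leaving out control array 3 did.

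Leaving out 1 array gave -0.55 to 0.15 for Tgfb1 1420653_at, -0.70 to 0.10 for Tgfb2 1450922_a_at, -0.65 to 0.025 for Tgfb2 1438303_at, -0.28 to 0.23 for Tgfb3, -0.35 to 0.033 for Tgfbr1 1420895_at, -0.21 to 0.035 for Tgfbr1 1420893_a_at, -0.24 to 0.018 for Tgfbr2 1426397_at, -0.38 to 0.44 for Tgfbr2 1425444_a_at, -0.71 to 0.13 for Ltbp1 1419786_at, -0.095 to 4.35 for Ltbp2, -0.57 to 0.084 for Ltbp3 1438312_s_at, -0.37 to 0.063 for Ltbp3 1418049_at, -0.44 to 0.15 for Ltbp3 1437833_at and -2.18 to 0.81 for Ltbp4. A lone TNF-LTBR array was assumed to vary like the controls.

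In 2 alternatives added after seeing the data, each without an array of either group, 7 and 2 signs changed, against 10 without TNF-LTBR array 1 alone and 2 without TNF-LTBR array 2 alone. Without TNF-LTBR array 1 and control array 2 they were Tgfb2 1450922_a_at (0.0020), Tgfb3 (0.12), Tgfbr1 1420894_at (0.022), Tgfbr2 1426397_at (0.0049), Ltbp1 1419786_at (0.011), Ltbp3 1418049_at (0.012) and Ltbp4 (0.26). Without TNF-LTBR array 2 and control array 3 they were Tgfbr2 1425444_a_at (-0.31) and Ltbp3 1437833_at (0.22).

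With the replicate block the member median was -0.18 and 0 probe sets passed. The titles give shared numbers but no shared origin. Deviations from the group means correlated at 0.09 for the arrays numbered 1 and at -0.462 for those numbered 2. The 2 TNF-LTBR arrays deviate by equal and opposite amounts. The -0.462 is thus the 0.462 of TNF-LTBR array 1 with control array 2, with its sign turned. These values cannot settle pairing, and with no shared origin stated the numbers were not taken as pairs. Control array 3 has no partner and leaves the blocked comparison.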
